A study of Mus musculus with 6 samples.

Results

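The NKG2 and CD94 receptors of natural killer cells (NKC) are C-type lectins encoded side by side on one stretch of mouse chromosome 6. Here they comprised 8 genes, Klrk1, Klrd1, Klrc1, Klrc2, Klrc3, Klre1, Klri1 and Klri2, and the rule took all probe sets whose single platform gene symbol equals one of these names. It found 7 of the 45101 probe sets on the array, covering 6 of the 8 genes (of 18193 genes named on the array by a symbol alone). No probe set used here carried the symbol Klri1 or Klri2, and neither gene was analysed. In RefSeq (GRCm38.p6) the order along the chromosome was Klre1, Klrd1, Klrk1, Klrc3, Klrc2, Klrc1, Klri1 and Klri2.

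Resting NKC came from spleens of 6-week-old ICR mice, 3 lacking the transcription factor Runx3 (Runx3-/-) and 3 wild type (WT, Runx3+/+), 1 Affymetrix array per sample. Other splenocytes were depleted with a kit, DX5+ cells (CD49b, an integrin) were collected by flow sorting, and no stimulus was given. The series' design text states that every sample came from a single mouse, whereas the sex label of every sample names both sexes. The labels do not state how the Runx3 allele was made and name no restriction of the loss to NKC. Values are log2 signals after GC-RMA, a normalization that removes a background set by the base content of each probe, and log2 5 is taken as the background level.

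CD94, the product of Klrd1, has almost no cytoplasmic tail and reaches the surface paired with an NKG2 chain. With NKG2A (Klrc1) the pair is inhibitory, because the tail of NKG2A recruits the phosphatase SHP-1, and with NKG2C (Klrc2) or NKG2E (Klrc3) it is activating through the adaptor DAP12. All of these pairs read Qa-1, a class I molecule that presents leader peptides of other class I chains, so that NKC can sense whether a neighbouring cell makes class I. NKG2D (Klrk1) forms a homodimer without CD94, signals through DAP10 and DAP12, and binds stress-induced ligands of the Rae-1, H60 and MULT1 families. KLRE1 pairs with KLRI1 or KLRI2, combinations that work in rats has shown to be inhibitory and activating.

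The stretch before the start site is shown for 3 members, the inhibitory Klrc1, the activating Klrk1 and the partner chain Klre1, because these are the members with measurable signal that the promoter table holds (RefSeq, GRCm38.p6). Each line gives the 250 bases upstream of the start, on the strand of the gene, with matches to the RUNX consensus in capitals. The search used TGTGGT with its variant TGTGGC, and TGCGGT with its variant TGCGGC, each on both strands. In the Klrc1 line the capitals show TGTGGT read on the other strand. The Klrc1 stretch lies at chr6:129678974-129679223 (minus strand), the Klrk1 stretch at chr6:129623865-129624114 (minus strand) and the Klre1 stretch, taken at the more upstream of 2 starts, at chr6:129577963-129578212 (plus strand).
Klrc1: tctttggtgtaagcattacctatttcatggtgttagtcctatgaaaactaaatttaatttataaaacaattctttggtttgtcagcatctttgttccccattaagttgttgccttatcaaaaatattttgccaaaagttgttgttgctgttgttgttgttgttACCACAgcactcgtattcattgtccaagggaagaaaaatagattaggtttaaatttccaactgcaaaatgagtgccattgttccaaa
Klrk1: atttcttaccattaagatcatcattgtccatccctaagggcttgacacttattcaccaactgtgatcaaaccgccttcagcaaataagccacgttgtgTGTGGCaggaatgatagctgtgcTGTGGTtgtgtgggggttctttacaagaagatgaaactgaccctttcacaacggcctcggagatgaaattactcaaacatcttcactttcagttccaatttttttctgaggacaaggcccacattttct
Klre1: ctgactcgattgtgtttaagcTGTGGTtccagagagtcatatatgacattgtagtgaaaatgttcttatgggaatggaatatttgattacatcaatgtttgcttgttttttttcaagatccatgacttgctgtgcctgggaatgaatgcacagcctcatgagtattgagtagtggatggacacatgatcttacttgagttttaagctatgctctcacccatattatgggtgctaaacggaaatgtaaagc

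Klrc1 held 1 match, at -87 to -82 from the start, Klre1 held 1, at -229 to -224 from the more upstream start and none in the window of its other start, and Klrk1 held 2, TGTGGC at -152 to -147 and TGTGGT at -129 to -124. No match overlapped another. At least 1 match stood in 38.0% of all 32851 promoter windows of this length, and at least 2 in 8.92%, so a single match is common. A match describes letters and shows no binding. The promoters of Klrc2 and Klrc3 were nearly the same sequence, with 246 of 249 aligned bases identical (98.8%, for 1 of the 2 Klrc2 starts), and each held 2 matches.

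Runx3 itself was checked first. Its brighter probe set read 7.76, 8.51 and 8.68 in Runx3-/- and 10.11, 11.56 and 10.73 in WT, a signal 5.59-fold lower in Runx3-/- with no overlap between the groups (limma adjusted p = 0.0960). A dimmer Runx3 probe set rose above log2 5 on a single array. Since the position of these sets relative to the disruption is unknown, the remaining signal cannot be read as intact transcript. Between 17074 and 17771 probe sets per array had a signal of at least log2 5.

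**Figure D1:**
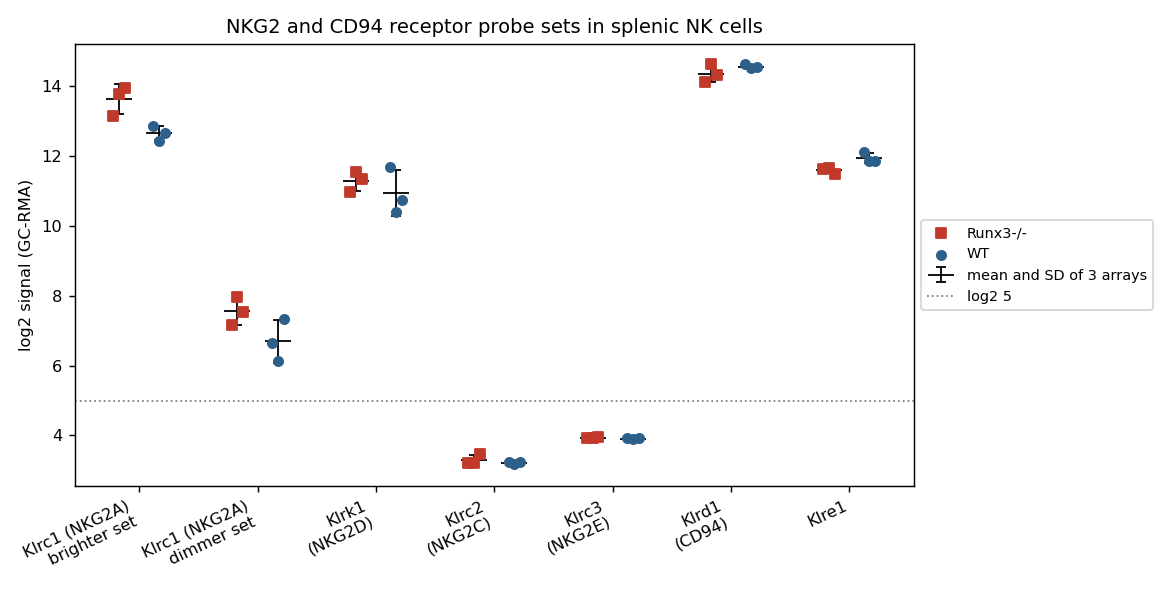
Log2 signal (vertical axis) of the 7 member probe sets (horizontal axis) on each array, with squares for Runx3-/-, circles for WT, black marks at each group's mean with its SD (n = 3), and a dotted line at log2 5. The brighter Klrc1 set lies at 13.13 to 13.94 in Runx3-/- and 12.44 to 12.86 in WT, and Klrc2 and Klrc3 lie below the line on every array.

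The comparison asks which receptor transcripts of resting NKC differ when Runx3 is absent. The transcript of the inhibitory chain NKG2A had a higher mean in Runx3-/- on both of its probe sets. The brighter of them met the study's thresholds, given below. Transcripts of the activating chain NKG2D and of both partner chains, CD94 and KLRE1, met no threshold. The interval of Klrk1 (NKG2D) still held an effect as large as that of Klrc1 (NKG2A). Transcripts of the activating chains NKG2C and NKG2E gave no signal above background in either genotype. Of the 7 member probe sets, 5 reached log2 5 on all 6 arrays and were tested, and 2 lay below it on all 6. The study listed genes changed 1.5-fold or more with a p below 0.05 before adjustment. By that criterion 1 of the 5 was higher and 0 were lower, against 6.85% higher and 6.78% lower (13.6% in either direction) among all 19120 probe sets tested. These shares stand for 1310 probe sets higher and 1296 lower, and single arrays moved them: 2008 were higher without the first WT array and 848 without the second Runx3-/- array, and 841 were lower without the third WT array. None passed an adjusted p of 0.05 in limma (BH 5%), which 0.0837% of all tested probe sets did, and 1 had an unadjusted p under 0.05 (14.9% of all). Groups did not overlap for 2 of the 5, against 21.7% of all. The median change of the 5 was 0.35 on the log2 scale and that of all tested probe sets -0.06. The 5 covered 4 genes, with Klrc1 counted by 2 probe sets, and their median was the value of Klrk1. It therefore describes no shift of the members as a set.

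Klrc1, encoding the inhibitory chain NKG2A, was read by 2 probe sets. The brighter gave 13.13, 13.78 and 13.94 in Runx3-/- and 12.86, 12.44 and 12.66 in WT. Every Runx3-/- array was above every WT array, with the first Runx3-/- array nearest to WT. The mean was 13.62 ± 0.42 in Runx3-/- against 12.65 ± 0.21 in WT (SD, n = 3 each), 1.95-fold higher in Runx3-/- (95% interval 1.25-fold to 3.04-fold). Both limits of the study's criterion were met, and BH 5% was missed (limma adjusted p = 0.213).

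The dimmer Klrc1 probe set gave 7.17, 7.95 and 7.53 in Runx3-/- and 6.64, 6.12 and 7.34 in WT. The third WT array lay above the first Runx3-/- array, so that the groups overlapped. Its mean was 1.80-fold higher in Runx3-/- (95% interval 0.997-fold to 3.25-fold, limma adjusted p = 0.338), and the thresholds were narrowly missed, since the interval reached just past no change. Without the third WT array the log2 change was 1.17 and met them, and without the first Runx3-/- array it was 1.04 and met them as well. The dimmer set missed them when any other single array was left out, with the lowest log2 change, 0.56, without the second WT array. Both probe sets thus had a higher mean in Runx3-/-, the brighter by 0.96 and the dimmer by 0.85 on the log2 scale. In sorted but mixed cells, more NKG2A-bearing cells and more Klrc1 RNA per cell cannot be told apart.

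Klrk1, encoding the activating receptor NKG2D, read 10.97, 11.55 and 11.33 in Runx3-/- and 11.67, 10.41 and 10.73 in WT. The highest value of all belonged to the first WT array and the lowest to the second, and the Runx3-/- arrays lay between them. The means were 11.28 ± 0.29 in Runx3-/- against 10.94 ± 0.66 in WT (SD, n = 3 each), a ratio of 1.27 with a 95% interval from 0.709-fold to 2.28-fold (limma adjusted p = 0.672). An effect as large as that of Klrc1 lies inside this interval. The result turned on the first WT array: without it the log2 change was 0.71 and met the study's thresholds (limma adjusted p = 0.210).

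Klrc2 and Klrc3, the activating partners of CD94, could not be measured. Klrc2 read 3.20, 3.20 and 3.48 in Runx3-/- and 3.25, 3.18 and 3.24 in WT, and Klrc3 read 3.94, 3.92 and 3.96 in Runx3-/- and 3.92, 3.89 and 3.92 in WT. A probe set annotated to both genes, which the membership rule leaves out, read 4.12, 3.99 and 4.32 in Runx3-/- and 4.30, 3.69 and 4.32 in WT. All of these values lie under log2 5, in the range set by the background model, and carry no fold change. They do not show that the transcripts were absent.

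Klrd1, encoding CD94, the chain that NKG2A, NKG2C and NKG2E share, read 14.13, 14.63 and 14.32 in Runx3-/- and 14.62, 14.52 and 14.54 in WT. The WT arrays lay close together and inside the Runx3-/- range. The means were 14.36 ± 0.25 in Runx3-/- against 14.56 ± 0.05 in WT (SD, n = 3 each), a ratio of 0.872 with a 95% interval of 0.616-fold to 1.24-fold (limma adjusted p = 0.687). This interval holds no 1.95-fold rise.

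Klre1, encoding the partner chain of KLRI1 and KLRI2, read 11.63, 11.66 and 11.49 in Runx3-/- and 12.12, 11.86 and 11.86 in WT. Every Runx3-/- array was below every WT array, but the distance was small. The means were 11.59 ± 0.09 in Runx3-/- against 11.95 ± 0.15 in WT (SD, n = 3 each), a ratio of 0.782 with a 95% interval of 0.567-fold to 1.08-fold, and no threshold was met (limma adjusted p = 0.432).

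**Figure D2:**
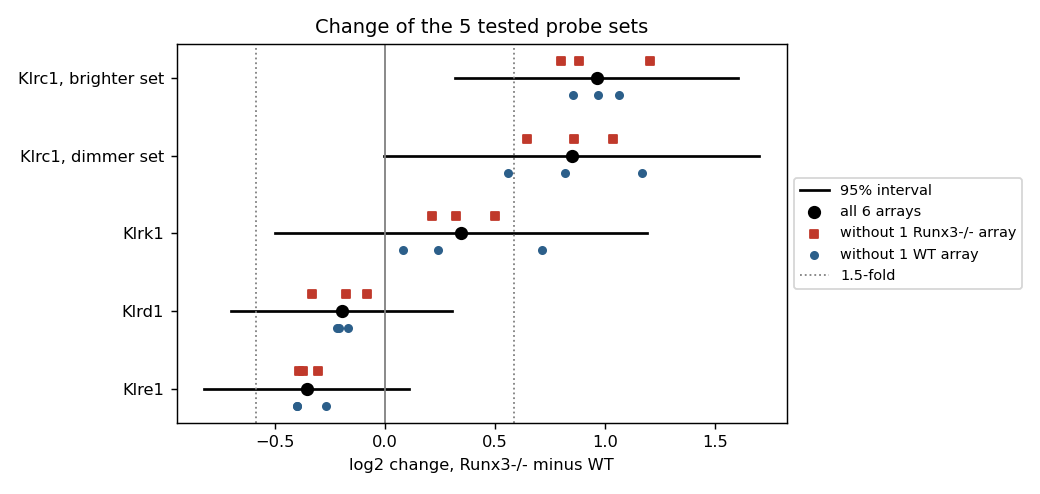
Log2 change, Runx3-/- minus WT (horizontal axis), of the 5 tested probe sets (vertical axis), with black points and bars for the fit to all 6 arrays and its 95% interval, squares without 1 Runx3-/- array, circles without 1 WT array, and dotted lines at 1.5-fold. The brighter Klrc1 set runs from 0.80 to 1.20 when an array is left out, and Klrk1 from 0.08 to 0.71.

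Inhibitory and activating chains were then set against each other within each array, so that the change of the difference between their log2 signals, and not their levels, was compared. Klrc1 minus Klrk1 was 2.16, 2.23 and 2.61 in Runx3-/- and 1.18, 2.03 and 1.93 in WT. Each Runx3-/- array lay above each WT array, and the first Runx3-/- and second WT arrays were close. The mean difference was 0.62 larger in Runx3-/- on the log2 scale (exact two-sided permutation test, p = 0.1, the smallest that 20 assignments allow; 0.1 after adjustment over 3 pairs). No difference of this kind can reach a p of 0.05 with 3 arrays a group. Without the first WT array the difference was 0.35. The same test on Klrc1 minus Klrc2 (0.89) and Klrc1 minus Klrc3 (0.93) also gave an exact permutation p of 0.1, but with the activating chain below background these values restate the change of Klrc1.

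The transcripts of the signaling machinery were described from a list of 27 adaptors, kinases and phosphatases, of which 25 had a probe set with their symbol alone. Each gene was read by its brightest probe set. Of the 25, 4 met the study's thresholds as lower and 0 as higher, against 8.32% lower and 4.57% higher among the brightest probe sets of all 9545 genes tested, and 0 passed BH 5% (limma; 4 had an unadjusted p under 0.05), which 0.0943% of those genes did. The list had a median log2 change of -0.02, and the 9545 genes one of -0.13. The adaptors that link the activating receptors to kinases were not among the 4. Tyrobp, encoding DAP12, read 14.66, 14.28 and 14.22 in Runx3-/- and 14.59, 14.44 and 14.58 in WT, overlapping groups with a log2 change of -0.15. Hcst, encoding DAP10, read 9.30, 8.94 and 9.15 in Runx3-/- and 7.88, 9.0 and 9.39 in WT. The first WT array alone was low, and the log2 change of Hcst, 0.37, was -0.07 without it.

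Ptpn6, encoding SHP-1, a phosphatase that the tail of NKG2A recruits, was lower in Runx3-/-. Its brightest probe set read 11.91, 11.56 and 12.04 in Runx3-/- and 12.73, 12.88 and 12.97 in WT, with no overlap. The signal was 2.03-fold lower (limma adjusted p = 0.149). Its other probe set read 8.11, 7.34 and 7.76 in Runx3-/- and 8.27, 8.80 and 8.53 in WT and was 1.74-fold lower (limma adjusted p = 0.265). The related phosphatase SHP-2 (Ptpn11) had a log2 change of -0.04 and SHIP-1 (Inpp5d) one of -0.31, neither past the thresholds.

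Vav1, a signaling protein downstream of NKG2D, read 9.74, 10.01 and 9.86 in Runx3-/- and 10.73, 10.58 and 10.78 in WT on its brightest probe set. It was 1.78-fold lower with no overlap (limma adjusted p = 0.178). A second Vav1 probe set, at 8.25 to 8.44 in Runx3-/- and 8.03 to 8.80 in WT, overlapped and had a log2 change of -0.18 (limma adjusted p = 0.767). Vav2 and Vav3 had log2 changes of 0.54 and 0.42 that met no threshold. The remaining genes that met the thresholds encode catalytic subunits of phosphoinositide 3-kinase, the enzyme DAP10 recruits.

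Pik3cd, the delta subunit, read 11.43, 11.13 and 11.11 in Runx3-/- and 11.93, 11.80 and 12.19 in WT, 1.68-fold lower (limma adjusted p = 0.218). Its probe sets did not move together. Another met the thresholds at 2.76-fold lower, on one the log2 change was 0.98, in the other direction and short of the thresholds, on one it was -0.24, and 2 more lay below log2 5 on all arrays. Pik3cb, the beta subunit, read 6.99, 7.65 and 7.24 in Runx3-/- and 8.45, 7.87 and 7.81 in WT, 1.69-fold lower (limma adjusted p = 0.284). It no longer met the study's thresholds without the first or the third Runx3-/- array, without the first WT array (log2 change -0.55), or with the replicate number as a block.

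**Figure D3:**
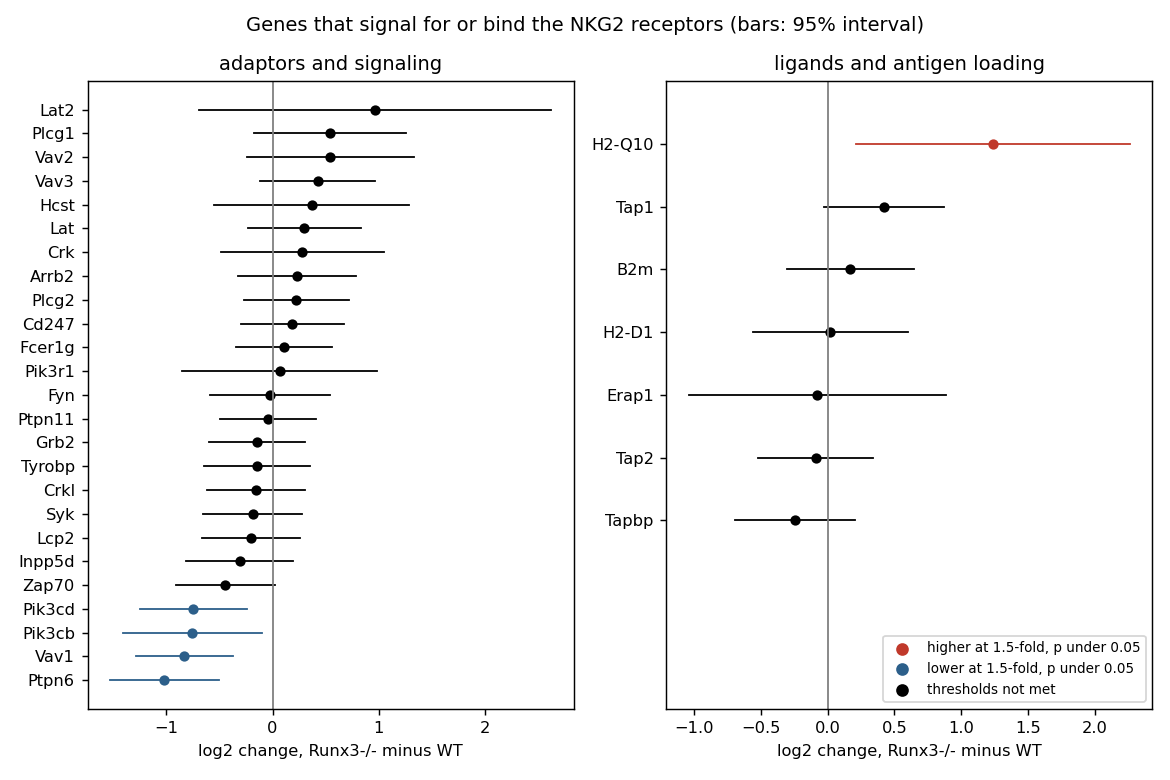
Log2 change, Runx3-/- minus WT (horizontal axes), with the 95% interval, of the 25 tested adaptor and signaling genes and the 7 tested ligand and antigen-loading genes (vertical axes), coloured by whether they met the study's thresholds. Ptpn6, Vav1, Pik3cb and Pik3cd lie on the lower side, with Ptpn6 at -1.02, and H2-Q10 lies at 1.24.

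Genes for the ligands were followed because NKC carry class I molecules too. Of 18 listed, 9 had a probe set with their symbol alone, 7 were tested, and 1 met the study's thresholds as higher and 0 as lower, with 0 past BH 5% (limma; 1 had an unadjusted p under 0.05). Among the 9545 genes the shares were 4.57% higher, 8.32% lower and 0.0943% past BH 5%, so 1 gene of 7 is little to go by. The median log2 change was 0.02 for the list and -0.13 for the 9545 genes. H2-T23, which encodes the heavy chain of Qa-1, is annotated only together with another gene and was not analysed. H2-D1, a source of the leader peptide that Qa-1 presents, read 15.23, 15.14 and 14.68 in Runx3-/- and 15.18, 14.72 and 15.09 in WT, with a log2 change of 0.02. B2m, the class I light chain, had a log2 change of 0.17, and Tap1, a subunit of the peptide transporter, one of 0.42, and neither met the thresholds.

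H2-Q10, another class I gene, read 7.54, 8.81 and 9.16 in Runx3-/- and 7.59, 7.30 and 6.90 in WT, 2.36-fold higher with overlap at the first Runx3-/- array (limma adjusted p = 0.270). It no longer met the study's thresholds when the second or the third array of either genotype was left out (log2 change 0.91 to 1.72 over all arrays left out in turn). Class I genes are close relatives, and a probe set may read more than one of them. The NKG2D ligands H60c and Ulbp1 (MULT1) lay below log2 5 on all arrays, at 2.26 to 2.40 in Runx3-/- and 2.33 to 3.04 in WT. The Rae-1 genes (Raet1a to Raet1e), H60a and H60b had no probe set with their symbol alone and were not analysed.

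Markers of the cell types that a DX5 sort can hold were set beside these values, as the mean log2 signal of each list. Each mean covers all listed genes with a probe set of their symbol alone, also those below log2 5 on all arrays. Counts of marker genes past the study's thresholds cover tested genes only. They are to be read against the 4.57% higher and 8.32% lower among the brightest probe sets of the 9545 genes. NKC markers did not separate the groups, at 13.19 to 13.44 in Runx3-/- and 13.06 to 13.51 in WT, with 0 higher and 1 lower (Eomes) of 9 tested. Ncr1, encoding the NKC receptor NKp46, read 13.68, 14.20 and 14.10 in Runx3-/- and 13.64, 13.34 and 14.10 in WT. Basophil markers were at 10.43 to 11.71 in Runx3-/- and 8.90 to 9.54 in WT, with 7 higher and 0 lower of 8 and Mcpt8, a basophil protease, at 12.46 to 12.85 in Runx3-/- and 10.34 to 11.45 in WT. Markers of type 1 innate lymphoid cells (ILC1) and tissue-resident NKC, populations that can also carry NKG2A, were at 8.0 to 8.25 in Runx3-/- and 6.67 to 6.77 in WT, with 5 higher and 0 lower of 7. Among them Itga1, the CD49a integrin, read 9.57, 8.31 and 7.84 in Runx3-/- and 6.91, 5.54 and 5.41 in WT, and Cxcr6, a chemokine receptor, 8.25, 8.63 and 8.60 in Runx3-/- and 7.45, 7.55 and 7.68 in WT. The others called higher were Cd200r1, Inpp4b and Ckb, while Tnfsf10 (log2 change 0.32) and Il7r (-0.14) met no threshold. This list was chosen with earlier results of these data known, so neither its mean nor its count tests whether such cells were present.

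Within Runx3-/- the basophil mean was 11.71, 10.56 and 10.43 on the 3 arrays. Macrophage and monocyte markers ran from 4.39 to 8.74 in Runx3-/- and 5.90 to 5.92 in WT, with 1 higher and 0 lower of 8, and the WT values lay inside the Runx3-/- range. B cell markers were at 6.12 to 7.09 in Runx3-/- and 5.10 to 6.26 in WT, with 3 higher and 0 lower of 7. T cell markers overlapped, at 5.73 to 6.17 in Runx3-/- and 5.69 to 6.15 in WT, with 0 of 6 past the thresholds and Cd4, Cd8a, Cd8b1 and Cd6 below log2 5 on all arrays. The part of any of these cells in the change of Klrc1 or Ptpn6 was not tested.

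**Figure D4:**
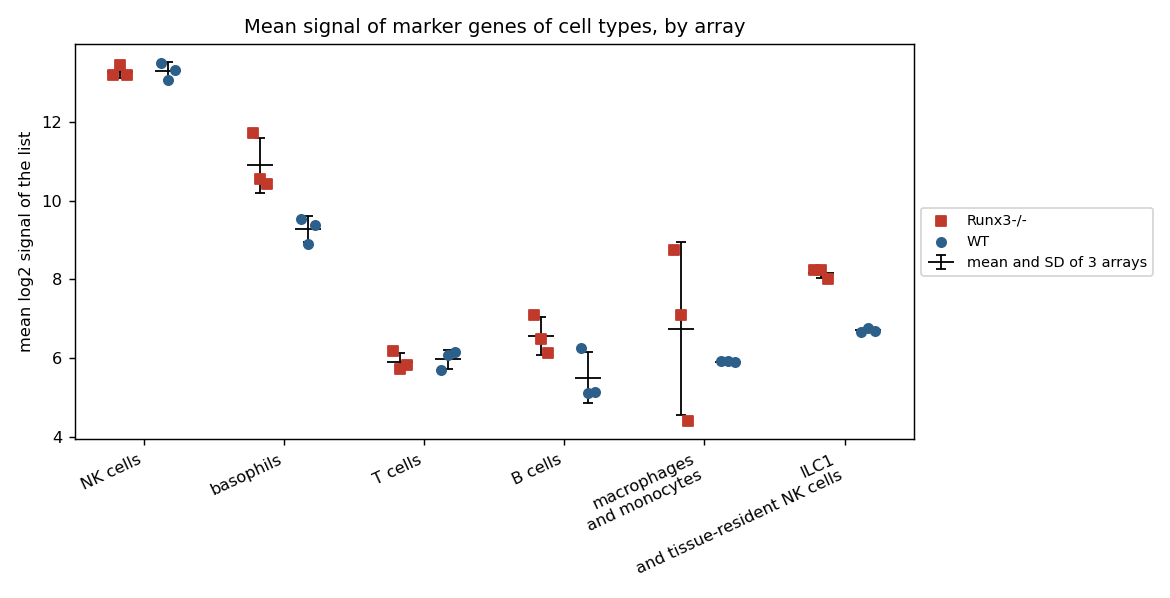
Mean log2 signal (vertical axis) of the marker genes of 6 cell types (horizontal axis) on each array, with squares for Runx3-/-, circles for WT and black marks at each group's mean with its SD (n = 3). NKC markers overlap between the groups, while basophil markers (10.43 to 11.71 in Runx3-/- and 8.90 to 9.54 in WT) and ILC1 markers (8.0 to 8.25 in Runx3-/- and 6.67 to 6.77 in WT) do not. The lists were chosen with earlier results of these data known, so a separation does not test which cells were present.

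The profile of each measured member over the 6 arrays was compared with those of 8514 other genes at log2 5 or more on all arrays, by the root mean square (RMS) difference of log2 signals after each profile was centred on its own mean. Klrc1 lay nearest to Timp2, a metalloproteinase inhibitor, and Dram2 (RMS difference 0.16 log2 for each), and to Igtp, an interferon-induced GTPase (0.17). Timp2 read 11.06, 11.36 and 11.46 in Runx3-/- and 10.80, 10.28 and 10.38 in WT. Klrk1 lay nearest to Fbxo11, a subunit of a ubiquitin ligase (0.10), Chpt1 and Zfp800 (0.11 each), which like Klrk1 were high on the first WT and second Runx3-/- arrays and lowest on the second WT array. Klrd1 lay nearest to Gnl3l, Ube2g2 and Gtf2b (0.04 to 0.05), and Klre1 to Eola1, Tmem19 and Manba (0.05 each). These neighbours were picked for their likeness out of many genes.

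No member was among the 3 genes nearest to another. Klrk1 was the member most like Klrc1, with an RMS difference of 0.43 log2, and ranked 343 when placed among the 8514 other genes. Klrd1, which encodes the partner of NKG2A, was at 0.62 from Klrc1 and ranked 2630, and Klre1 was at 0.72 and ranked 4764. Klrd1 and Klre1 were the closest pair, at 0.17, with Klre1 ranked 486 for Klrd1. Both profiles barely varied, with an RMS around their own means of 0.179 log2 for Klrd1 and 0.205 log2 for Klre1, so that a flat profile would lie about as near.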

How the data were processed

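Total RNA of DX5-sorted splenic NKC was hybridised to Affymetrix mouse arrays. Per the submitters' processing notes and the study's methods, signals were summarised by GC-RMA (Partek, version not stated). The table the authors deposited holds log2 signals of 45101 probe sets, 1 column per array. The study's methods name the array A430.2, whereas the deposited probe sets carry the annotation of a larger array. They were named here through that platform annotation: 34945 had 1 gene symbol, 932 several, 9160 none listed and 64 were controls. By gene identifier, 34741 of the named sets matched RefSeq and no symbol differed. Because GC-RMA brings arrays to a common distribution, a change in total RNA cannot be seen, and the number of arrays limits the precision.

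Every probe set at log2 5 or more on at least 1 array (19120) was fitted with limma 3.58.1 (lmFit, eBayes) in R 4.3.3, with 3 Runx3-/- and 3 WT arrays and no covariate, and p-values were adjusted by Benjamini-Hochberg over all of them. The methods state thresholds and a requirement of signal above background on an array, but neither the test nor the background value, and log2 5 stands in for the second. The fit was tested on simulated data with independent noise and planted changes larger than that of any member probe set. It therefore does not show how well changes of the members' size are found. Genes of the other lists were read by the probe set with the highest mean over all arrays. Fold changes are Runx3-/- over WT unless written as lower.

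Named genes were all members, Runx3, list genes at the study's thresholds with a few fixed partners, leading markers, and the 3 genes nearest to each member in profile. Members, lists and tests were chosen with earlier results of these data known. Alternatives covered the filter, scaling, floor, features tested, moderation, array weights, a replicate block and leaving out each array. For Runx3 and the named partner genes they were chosen after seeing the data. Motif searches used the 250 bases before each start in the RefSeq promoter table.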

Additional observations from a re-analysis of the deposited data

How the results depend on the processing

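The brighter Klrc1 probe set stayed higher and met the study's thresholds in all 16 alternatives (log2 change 0.80 to 1.20; limma adjusted p 0.0935 to 0.507), and Klrd1 and Klre1 kept their direction in all 16 and met both of the study's thresholds in none, although the p of Klre1 alone fell under 0.05 with no filter, at a change below 1.5-fold. Klrk1 ran from 0.0829 to 0.714 with 1 array left out, the highest without WT replicate 1. The number of member probe sets at the study's thresholds was 2 in place of 1 with log2 5 on at least 3 arrays, with median centring and with array weights, where the dimmer Klrc1 set met them, and 1 to 2 with an array left out. The dimmer Klrc1 set met the thresholds in 5 of its 15 alternatives and missed them in 10 (log2 change 0.56 to 1.17). Hcst, at 0.37, ran from -0.0683 to 0.685, the lowest without WT replicate 1. Klrc1 minus Klrk1 ran from 0.35 to 0.77 with an array left out.

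Over all probe sets, 16 passed BH 5%. It was 6 with no filter, 8 with values below 5 raised to 5, 58 with 1 probe set per gene (9545 tested), 31 with trend and robust moderation, 139 with array weights, and 3 to 184 with an array left out, the most without WT replicate 1. At the study's thresholds 2606 probe sets were called, and 1313 with 1 probe set per gene. The cause of these shifts was not tested. With 1 probe set per gene the fit and the adjustment used those 9545 sets alone, whereas in the main fit 9 of the 9545 passed BH 5%. With the replicate number as a block, 2 passed BH 5% and no member's call changed. Correlations over probe sets of the deviations of same-numbered arrays were 0.0028, -0.16 and 0.13. Those of differently numbered arrays ran from -0.21 to 0.21. These values cannot settle whether the numbers pair the samples. Signals below log2 5, which hold Klrc2 and Klrc3, cannot be compared.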
